A study of Mus musculus with 6 samples.

Results

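Chemokines are small secreted proteins that guide leukocytes, and their receptors are G protein coupled receptors on the cells that respond. They were examined here in alveolar type II cells, the epithelial cells that make surfactant. The cells came from mice labelled as knockouts of the adhesion receptor Gpr116 and from controls. The members were all genes whose symbols begin with Ccl, Ccr, Cxcl, Cxcr or Ackr and a number, together with Cx3cl1, Cx3cr1, Xcl1, Xcr1 and Ccrl2, where an Affymetrix probe set carried that symbol alone. This gave 57 genes among the 19938 tested, of which 34 encode ligands and 23 receptors. For a gene with several probe sets the brightest was used.

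The arrays labelled knockout held RNA from mice that carried the SP-C-rtTA/(tetO)7CMV-Cre transgenes and, in addition, Gpr116flx/flx alleles. The surfactant protein C promoter drives the activator of Cre recombinase in these mice. Control arrays came from littermates with SP-C-rtTA/(tetO)7CMV-Cre alone, so both groups carried the Cre transgenes and the controls had no conditional allele. All mice were 8 weeks old, and each of the 3 arrays per group held type II cells pooled from 3 mice after collagenase digestion and differential plating. Deletion can occur only in cells in which the transgenic promoter had been active, and the pools hide differences between single animals. Replicate numbers below are those of the array titles.

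Chemokines are grouped by the spacing of their first cysteines into CC, CXC, CX3C and XC families. CXC ligands with a glutamate-leucine-arginine motif attract neutrophils through Cxcr1 and Cxcr2. Cxcl9 and Cxcl10 are induced by interferon and attract activated T cells through Cxcr3, and Cxcl12 and Cxcl13 position lymphocytes and progenitor cells through Cxcr4 and Cxcr5. Atypical receptors bind chemokines and take them up without classical G protein signalling. In the lung, epithelial cells release several of these ligands, and Cxcl15, also called lungkine, is known as a product of airway and alveolar epithelium.

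Values are log2 expression values, so a difference of 1 is a doubling. A bright probe set does not show that its gene is more abundant than another, and no order of abundance between genes is drawn. Array medians lay between 6.77 and 6.81. The 10 type II cell markers averaged 12.24 to 12.29 on the arrays labelled knockout, against 12.18 to 12.20 on the control arrays. Of the 10, 1 was called, Lamp3, higher by 0.32 ± 0.07 (limma adjusted p = 0.0337), against 8.49% of all genes called. The groups did not overlap in 4 markers with the arrays labelled knockout higher and in 1 with them lower. The probe set of Gpr116, named Adgrf5 in the annotation, read 11.89, 11.78 and 11.87 on the arrays labelled knockout, against 11.49, 11.53 and 11.51 on the control arrays. It was thus higher, not lower, under the knockout label, and the position of its probes with respect to the deletion is not known here, so it is no check of the deletion. Group directions therefore rest on the labels.

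The array labelled knockout 1 stood apart in genes of T cells and thymus. Of 14 genes of developing T cells and thymic epithelium, chosen after values had been seen, all 14 were highest on that array. The choice favoured this outcome, so the 24.0% of all genes highest there is no yardstick for it. Some margins were small, as for Ptcra at 6.52 on knockout 1 and 6.37 to 6.49 on the other arrays. The 14 genes averaged 6.87 on knockout 1, 5.79 on knockout 2, 5.83 on knockout 3 and 5.84 to 5.89 on the control arrays. Themis, a signalling protein of developing T cells, read 7.82 on knockout 1 and 4.80 to 5.04 on the other 5 arrays, and Prss16, a thymic serine protease, read 8.52 and 6.30 to 6.42. The 7 measured T and NK cell markers averaged 5.98 on knockout 1, 5.22 and 5.26 on the other arrays labelled knockout, and 5.25 to 5.35 on the control arrays. Results for the chemokine genes are therefore also given without knockout 1.

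Promoter sequences are shown for Cxcl13 and Cxcl9, which rose and hold no match to the NF-kappaB letters searched. They are also shown for Cxcl1, Cxcl2, Cxcl3 and Cxcl10, which were not called and hold several. This contrast was picked after the calls were known, and Cxcl5, also called, was not searched. Cxcl1 and Cxcl10 were also higher on every array labelled knockout, and a limma fit that took same-numbered arrays as pairs called Cxcl10 (adjusted p = 0.0228). Ccl20, not called, held a match at position -80 from the start and was likewise higher on every array labelled knockout. Other ligands without a call, among them Cxcl15, Ccl3, Ccl6 and Ccl8, also lacked the NF-kappaB letters in their windows. Whether the calls go with these letters was not tested. RefSeq windows of 250 bases before to 50 bases after the annotated start (build GRCm38.p6) were found for 43 of the 57 genes. They were searched on both strands for a core of NF-kappaB sites (kB motif: GGG, any 3 bases, TTCC), for TTCNNNGAA (STAT motif), for an interferon response motif (GAAA, any 2 bases, GAAA) and for TATAAA. No overlaps between different motifs occurred in the stretches printed here, but kB matches on opposite strands overlap each other where a run longer than the motif is in capitals. Capitals mark all matches, and each stretch is written 5′ to 3′ on the strand of the gene. Cxcl13 is at chr5:95956689-95956938 on the plus strand and Cxcl9 at chr5:92328080-92328329 on the minus strand, both shown for the 250 bases before the start. Cxcl1 (chr5:90891125-90891244), Cxcl2 (chr5:90903779-90903898) and Cxcl3 (chr5:90785981-90786100), all on the plus strand, are shown for the 120 bases before the start. Cxcl10 (chr5:92348980-92349109, minus strand) is shown for the 130 bases that hold its matches.
Cxcl13: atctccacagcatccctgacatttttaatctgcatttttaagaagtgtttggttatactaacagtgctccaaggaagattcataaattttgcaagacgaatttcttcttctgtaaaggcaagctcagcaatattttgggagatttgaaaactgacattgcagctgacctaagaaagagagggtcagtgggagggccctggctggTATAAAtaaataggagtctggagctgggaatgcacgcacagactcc
Cxcl9: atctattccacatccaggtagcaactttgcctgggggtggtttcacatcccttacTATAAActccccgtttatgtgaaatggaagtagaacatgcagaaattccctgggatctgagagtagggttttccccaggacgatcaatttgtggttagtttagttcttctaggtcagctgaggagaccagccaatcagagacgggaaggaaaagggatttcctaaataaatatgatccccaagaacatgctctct
Cxcl1: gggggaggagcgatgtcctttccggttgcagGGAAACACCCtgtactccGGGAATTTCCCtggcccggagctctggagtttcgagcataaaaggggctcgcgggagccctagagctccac
Cxcl2: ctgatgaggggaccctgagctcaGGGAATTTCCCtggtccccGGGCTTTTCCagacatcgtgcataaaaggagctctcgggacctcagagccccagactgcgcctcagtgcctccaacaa
Cxcl3: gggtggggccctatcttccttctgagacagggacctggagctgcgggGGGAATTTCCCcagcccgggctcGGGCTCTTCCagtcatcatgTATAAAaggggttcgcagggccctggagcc
Cxcl10: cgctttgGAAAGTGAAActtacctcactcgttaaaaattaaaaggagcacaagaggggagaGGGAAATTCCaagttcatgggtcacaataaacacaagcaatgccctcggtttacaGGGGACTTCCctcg

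The kB motif was present in 7 of 24 ligand windows and 9 of 47 windows of all members, and in 5.56% of all 32851 windows in the table. Cxcl1, Cxcl2 and Cxcl3 each held 3 overlapping or neighbouring matches within 100 bases of the start, and Cxcl10 held 2, with the interferon response motif further upstream. Neither Cxcl13 nor Cxcl9 held a match to the kB, STAT or interferon response letters in its window, and the window of Cxcl12 held none of the 4 motifs. The TATAAA letters stood at position -46 from the start in Cxcl13 and at -195 in Cxcl9. They were present in 13.6% of all windows. A match is only a run of letters, and sites outside these windows or with other letters were not searched.

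Of the 57 genes, 4 passed limma's threshold, an adjusted p under 0.05, with a higher level on the arrays labelled knockout, and 0 with a lower one. All 4 were CXC ligands, namely Cxcl13, Cxcl9, Cxcl5 and Cxcl12. Across all genes tested, 3.36% were called higher and 5.13% lower (8.49% in either direction), so the share of the 57 called in either direction was near the background. With the replicate number as a block, 5 were higher and 2 lower, against 3.08% and 4.86% of all genes (7.94% in either direction). At an unadjusted p under 0.05, 10 were higher (11.5% of all genes) and 5 lower (10.6%), with 22.1% of all genes in either direction.

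**Figure D1:**
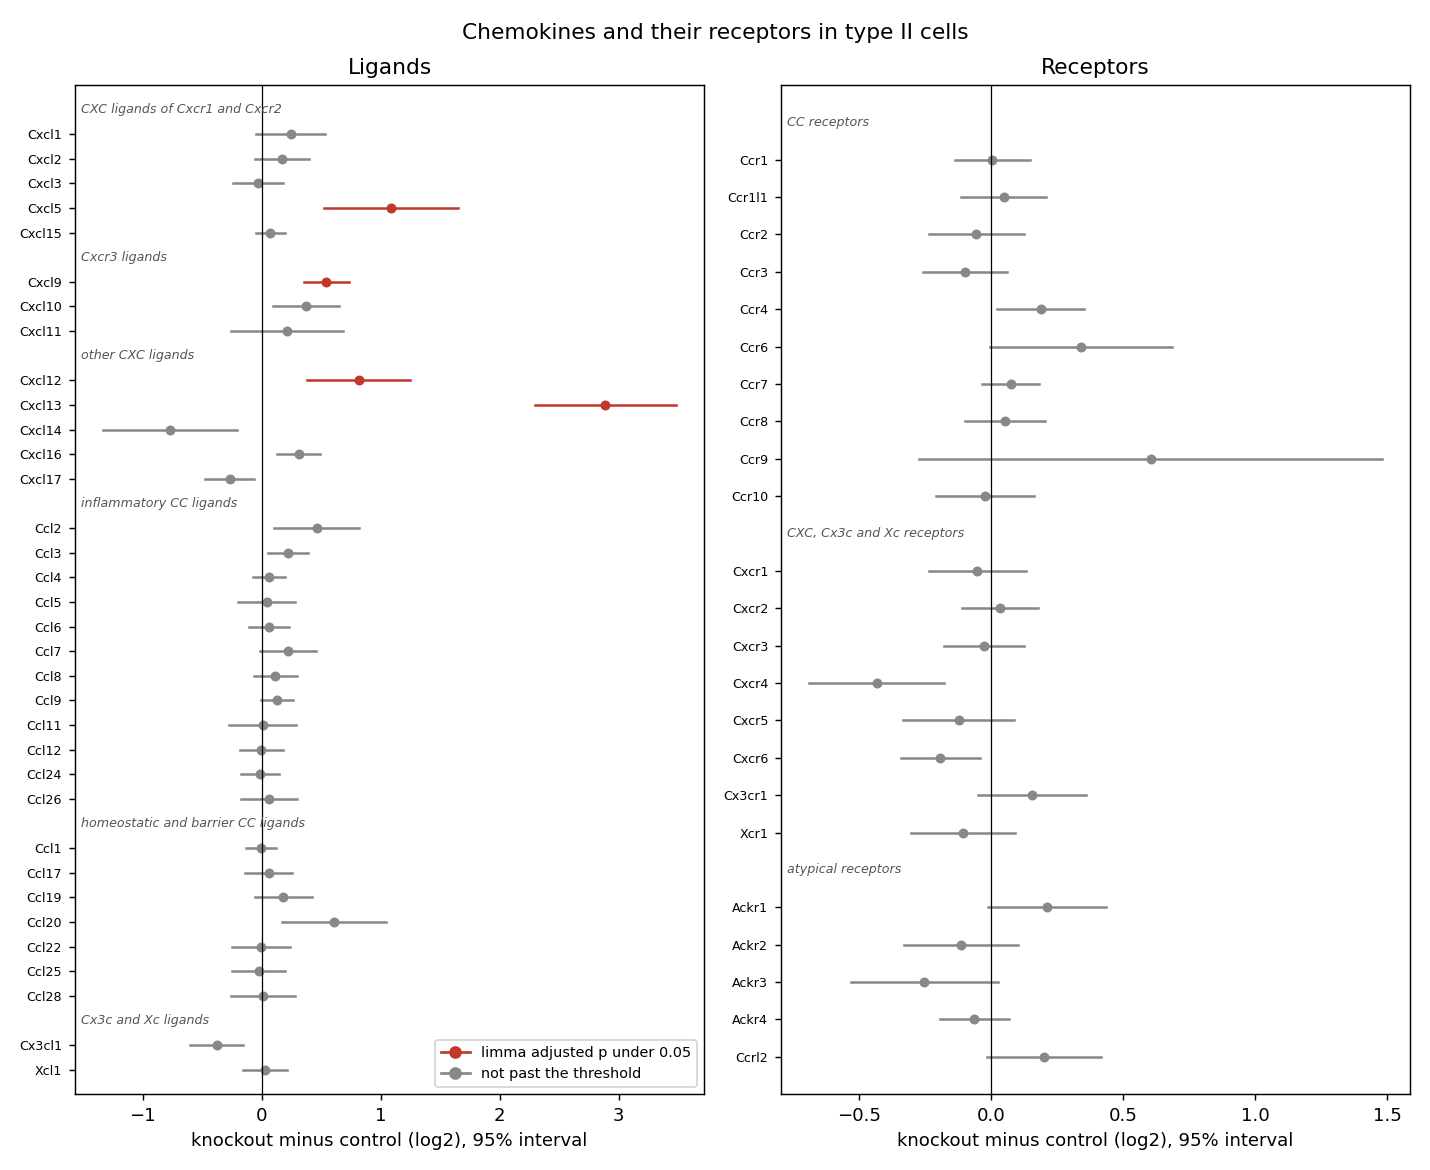
Log2 difference, knockout minus control, with its 95% interval from limma for 34 ligands (left) and 23 receptors (right), grouped by role. The 4 red points, Cxcl5, Cxcl9, Cxcl12 and Cxcl13, passed the adjusted threshold, and Cxcl13 lies farthest from 0 at 2.89. The horizontal scales of the panels differ.

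The median difference over the 57 genes was 0.053 on log2, with 36 positive (63.2%) and 21 negative, against a median of 0.003 and 51.9% positive over all genes. Ligands had a median of 0.067 with 25 of 34 positive, and receptors a median of -0.023 with 11 of 23 positive. Among the 13 CXC ligands the median was 0.243 and 10 were positive. Among the 19 CC ligands it was 0.060, 14 were positive and 0 passed limma's adjusted threshold, while 3 had an unadjusted p under 0.05, all higher. Over all genes 8.49% passed the adjusted threshold, and 11.5% were higher at an unadjusted p under 0.05. In 15 of the 57 genes the difference was at least 0.25 in size, against 14.7% of all genes, and in 2, Cxcl13 and Cxcl5, at least 1, against 1.01% of all genes.

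In 21 of the 57 genes the groups were fully separated, with the knockout values above the controls in 16 and below them in 5. Across all genes 14.8% did not overlap with the arrays labelled knockout higher and 12.8% with them lower, 27.6% in all. Of the 21 genes, 9 were CXC ligands (7 higher, 2 lower), 4 CC ligands (all higher), 1 was Cx3cl1 (lower) and 7 were receptors (5 higher, 2 lower).

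Cxcl13, the ligand of Cxcr5 that draws B cells into lymphoid follicles, showed the largest difference of the 57. Its values were 10.10, 10.69 and 10.70 on the arrays labelled knockout, against 8.08, 7.57 and 7.18 on the control arrays. The groups lay more than 2 log2 units apart, and knockout 1 and control 1 were the closest arrays of the 2 groups. The mean difference was 2.89 ± 0.25 (SE, n = 3 per group; 95% interval 2.29 to 3.48), or 7.40-fold (limma adjusted p = 0.00389). In bulk RNA, more cells making a transcript cannot be told apart from more transcript per cell. Without knockout 1 the difference was 3.08 ± 0.23 (adjusted p = 0.000586). Cxcl13 was called under each of 15 alternative settings, with adjusted p from 0.000586 to 0.0401.

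Cxcr5, the receptor of Cxcl13, was not called. It read 4.94, 5.16 and 4.93 on the arrays labelled knockout, against 5.08, 5.27 and 5.05 on the control arrays. These ranges overlapped, and the difference was -0.12 with a 95% interval of -0.33 to 0.09 (limma adjusted p = 0.497). Of 7 measured B cell markers, 0 were called in either direction by limma and 0 had an unadjusted p under 0.05. Their mean was 5.62 to 5.70 on the arrays labelled knockout, against 5.59 to 5.71 on the control arrays, and the differences of single markers lay between -0.10 and 0.16. Cd79b, a chain of the B cell receptor complex, read 8.93, 8.62 and 8.71 on the arrays labelled knockout, against 8.56, 8.62 and 8.61 on the control arrays, while Ms4a1 lay at 4.17 to 4.34 and 4.13 to 4.38. The part of B cells and macrophages in the Cxcl13 result was not tested beyond these values. Macrophage markers likewise had 0 of 9 called, 0 at an unadjusted p under 0.05, and means of 5.64 to 5.83 on the arrays labelled knockout, against 5.70 to 5.82 on the control arrays.

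Cxcl9, an interferon-gamma induced ligand of Cxcr3, rose 1.46-fold. The arrays labelled knockout read 6.89, 6.88 and 6.69, and the control arrays 6.40, 6.22 and 6.21. All 3 arrays labelled knockout lay above all 3 control arrays, with a mean difference of 0.54 ± 0.08 (SE over 3 arrays a group; limma adjusted p = 0.0105). Without knockout 1 the difference was 0.51 ± 0.09 (adjusted p = 0.0163). The call was lost without control 2 (adjusted p = 0.0585), without control 3 (0.0614) and in the female pools alone (0.0567), and adjusted p ranged from 0.0074 to 0.0614 over the 15 settings.

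Cxcl10, another interferon-induced Cxcr3 ligand, read 6.11, 6.11 and 5.77 on the arrays labelled knockout, against 5.67, 5.75 and 5.46 on the control arrays. Its groups were separated by 0.02 only, and the difference of 0.37 ± 0.12 did not pass (limma adjusted p = 0.114). With pairs blocked by number it passed (adjusted p = 0.0228), the only 1 of 14 alternative settings to call it, with adjusted p up to 0.319. Cxcl11, which the RefSeq table lists as a transcribed pseudogene, read 6.01, 5.23 and 5.24 on the arrays labelled knockout, against 5.26 to 5.30 on the control arrays. Its value was high on knockout 1 alone, the array with the higher thymus and T cell genes, and the difference of 0.21 became -0.048 without that array (adjusted p = 0.622 and 0.651). Cxcr3 itself read 6.57, 6.45 and 6.38 against 6.45, 6.52 and 6.51 on the control arrays, with overlapping groups and a 95% interval of -0.18 to 0.12 for the difference.

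Cxcl5, an attractant of neutrophils known to be made by type II cells, rose 2.12-fold. It read 6.16, 5.85 and 5.12 on the arrays labelled knockout, against 4.65, 4.67 and 4.55 on the control arrays. The probe set was dim, with a mean of 5.17 over all arrays, below the array medians of 6.77 to 6.81. The groups did not overlap, but the arrays labelled knockout spread over about a log2 unit while the controls lay close together. The difference was 1.09 ± 0.24 (SE over 3 arrays a group; limma adjusted p = 0.0377). Without knockout 1 it was 0.86 ± 0.19 (adjusted p = 0.0406). The call was lost when knockout 2 or any of the 3 control arrays was left out, with the sex of the pool as a covariate, with a mean-dependent spread and in the female pools alone (adjusted p of 0.0599 to 0.188, over a range of 0.011 to 0.188 in 14 settings).

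The other ligands of Cxcr1 and Cxcr2 did not pass. Cxcl1, the keratinocyte-derived neutrophil attractant, read 7.84, 7.38 and 7.39 on the arrays labelled knockout, against 7.30, 7.28 and 7.30 on the control arrays. Its groups did not overlap, and the highest value was again that of knockout 1, with a difference of 0.24 ± 0.12 that was 0.09 ± 0.05 without that array (limma adjusted p = 0.315 and 0.363). Cxcl2 differed by 0.17 ± 0.10 and Cxcl3 by -0.03 ± 0.09, both with overlapping groups. Cxcl1, Cxcl2 and Cxcl3 are the genes whose printed promoter stretches hold the tandem kB matches.

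Cxcl15, the lungkine gene, was the brightest of the 57. Its values were 13.04, 13.11 and 13.15 on the arrays labelled knockout, against 13.03, 13.04 and 13.02 on the control arrays. The groups overlapped, and the difference was 0.07 with a 95% interval of -0.05 to 0.19 (limma adjusted p = 0.503). The highest values of the arrays were 13.32 to 13.43, and whether saturation limited the difference was not tested.

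The receptors Cxcr1 and Cxcr2 also overlapped between groups. Cxcr1 read 5.96, 5.82 and 6.11 on the arrays labelled knockout, against 6.01, 6.01 and 6.03 on the control arrays, and Cxcr2 read 3.97, 3.91 and 3.92 against 3.95, 3.95 and 3.80. The 95% intervals of the differences were -0.24 to 0.13 and -0.11 to 0.18. Among 8 neutrophil markers 1 was higher by limma, the resistin-like gene Retnlg at 0.58 ± 0.13 (adjusted p = 0.0382), and 0 were lower. The abundant neutrophil genes S100a8 and S100a9 differed by -0.003 and 0.013. The protease Mmp8 read 4.56, 6.44 and 5.29 on the arrays labelled knockout, against 4.36 to 4.43 on the control arrays (unadjusted p = 0.0403, limma adjusted p = 0.200). Ltf, the lactoferrin gene, was high on knockout 3 at 9.25. The list averaged 5.54, 5.72 and 5.87 on the arrays labelled knockout, against 5.36 to 5.46 on the control arrays, and its part in the Cxcl5 result was not tested.

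Cxcl12, the ligand of Cxcr4 and of the atypical receptor Ackr3, rose 1.76-fold. It read 7.26, 7.93 and 7.20 on the arrays labelled knockout, against 6.66, 6.60 and 6.69 on the control arrays. The control arrays lay within 0.1 of each other, and knockout 2 was the highest array. The difference was 0.81 ± 0.18 (SE over 3 arrays a group; limma adjusted p = 0.0403). Without knockout 1 it was 0.91 ± 0.19 (adjusted p = 0.0319), but the call was lost when knockout 3 or any of the 3 control arrays was left out (adjusted p of 0.0524 to 0.149, over a range of 0.00793 to 0.149 in 15 settings).

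Cxcl12 is also a product of fibroblasts and endothelium, and their markers were examined beside it. The 7 fibroblast markers averaged 8.88, 9.25 and 8.85 on the arrays labelled knockout, against 9.28, 9.13 and 8.95 on the control arrays, with 0 called and 0 at an unadjusted p under 0.05 by limma. Of the arrays labelled knockout, knockout 2 had the highest mean of these markers, but single markers differed. Col1a1 read 9.46, 9.89 and 9.35 on knockout 1, 2 and 3, and Dcn read 11.41, 10.63 and 10.48. Of the 6 blood endothelial markers 5 had positive differences. Cdh5, the endothelial cadherin gene, read 6.68, 7.15 and 7.21 on the arrays labelled knockout, against 6.62, 6.27 and 6.28 on the control arrays, at 0.62 ± 0.16 (limma adjusted p = 0.0614). The list, Kdr included, averaged 6.60 to 6.63 on the arrays labelled knockout, against 6.52 to 6.70 on the control arrays, with Pecam1 higher at 0.45 ± 0.07 and Kdr lower at -1.18 ± 0.20 (limma adjusted p = 0.0104 and 0.0152). The part of these cells in the Cxcl12 result was not tested beyond these values.

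Cxcr4, the signalling receptor of Cxcl12, had negative differences. Its values were 7.38, 7.07 and 6.97 on the arrays labelled knockout, against 7.64, 7.58 and 7.50 on the control arrays. The groups did not overlap, with a difference of -0.43 ± 0.11 (limma adjusted p = 0.0557). With pairs blocked by number, Cxcr4 passed (adjusted p = 0.0293). It also passed without knockout 1, the highest array of its group, at -0.55 ± 0.07 (adjusted p = 0.00383). Cxcr4 was called in 5 of 15 alternative settings, with adjusted p up to 0.253. The T cell genes were also highest on knockout 1, and their part in the Cxcr4 values was not tested.

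Ackr3, which takes up Cxcl12 and Cxcl11, read 6.07, 5.59 and 5.72 on the arrays labelled knockout, against 6.07, 6.03 and 6.04 on the control arrays. Knockout 1 matched the controls and the other arrays labelled knockout lay below them. The difference was -0.25 ± 0.12 with all arrays and -0.39 ± 0.06 without knockout 1 (limma adjusted p = 0.271 and 0.0114). Ackr3 was called in only 1 of 14 alternative settings, with adjusted p up to 0.599.

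**Figure D2:**
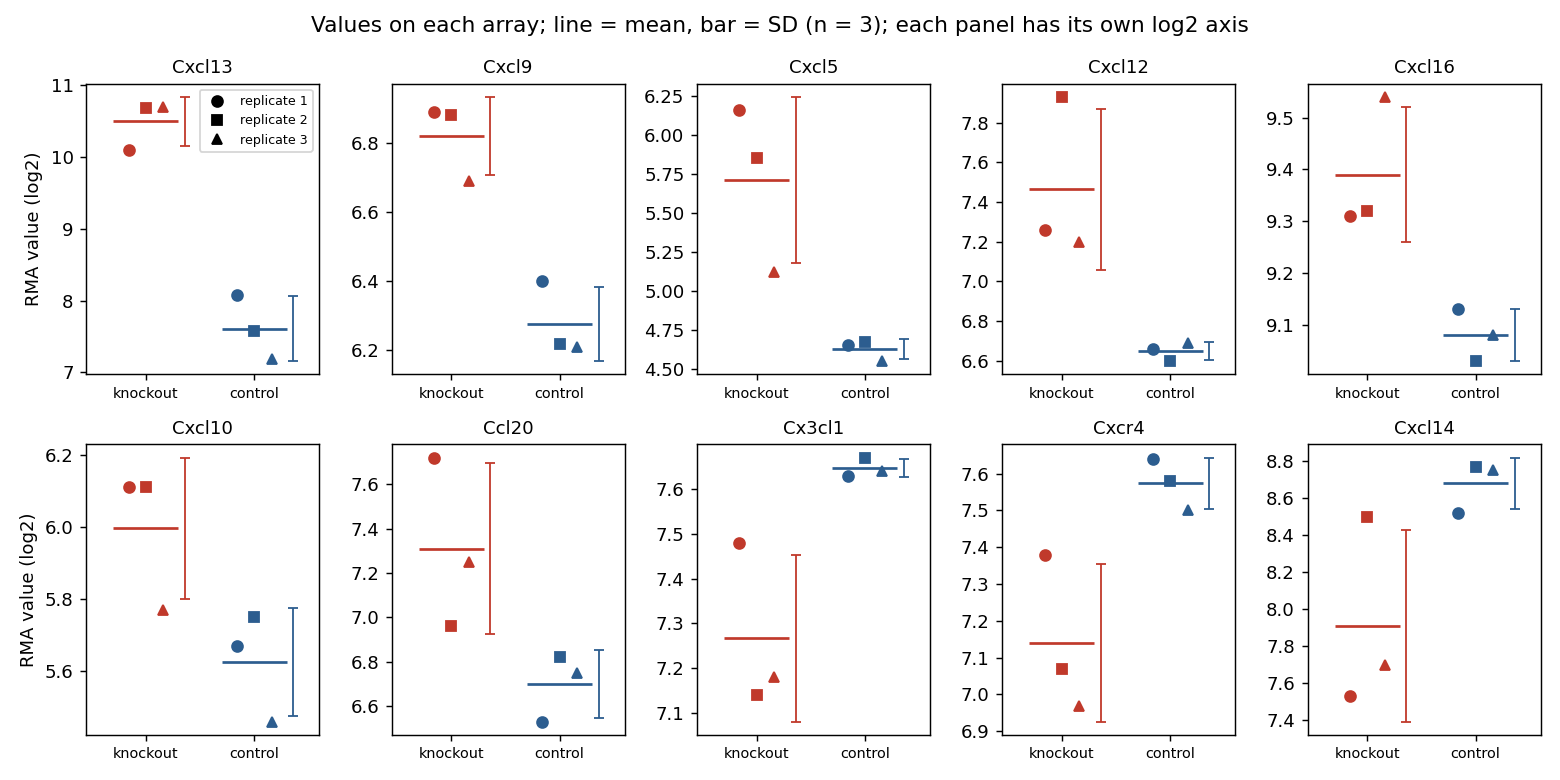
Log2 value on each array for 10 chemokine genes, arrays labelled knockout (red, left) and control (blue, right). Symbols mark the replicate number, lines the group mean and bars the SD (n = 3). In each panel the groups do not overlap, with Cxcl13 at 10.10 to 10.70 on the arrays labelled knockout, against 7.18 to 8.08 on the control arrays. Each panel has its own vertical scale.

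Cxcl14, an epithelial chemokine of resting tissues, had the most negative difference. The arrays labelled knockout read 7.53, 8.50 and 7.70, and the control arrays 8.52, 8.77 and 8.75. Knockout 2 came within 0.02 of the lowest control, so that the groups barely separated. The difference was -0.77 ± 0.24 (SE over 3 arrays a group; limma adjusted p = 0.108). With pairs blocked by number it passed (adjusted p = 0.0479) and without knockout 2, at -1.06 ± 0.10 (adjusted p = 0.00761). Cxcl14 was called in 4 of 15 alternative settings, with adjusted p up to 0.289.

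Cxcl17, a mucosal chemokine of airway epithelium, read 8.74, 8.45 and 8.45 on the arrays labelled knockout, against 8.87, 8.79 and 8.79 on the control arrays. Its difference of -0.27 ± 0.09 did not pass (limma adjusted p = 0.126), but passed without knockout 1 at -0.37 ± 0.06 (0.0104). Cxcl17 was called in only 1 of 15 alternative settings, with adjusted p up to 0.397. Markers of airway cells were examined beside it: all 8 ciliated cell markers fell by limma's threshold, with means of 9.15, 8.72 and 8.56 on the arrays labelled knockout, against 9.77 to 9.83 on the control arrays. Of 4 club cell markers, 2 fell, Scgb3a2 by 0.96 ± 0.10 and Cyp2f2 by 0.29 ± 0.07 (limma adjusted p = 0.00425 and 0.0467), and with pairs blocked by number the call of Cyp2f2 was lost (adjusted p = 0.0657). Scgb3a1 had a positive difference of 0.08, with 12.02 on knockout 3, against 10.50 to 10.90 on the control arrays. The club cell list averaged 11.15, 11.05 and 11.57 on the arrays labelled knockout, against 11.52 to 11.63 on the control arrays. The part of airway cells in the lower values of Cxcl14, Cxcl17, Cx3cl1 and Cxcr4 was not tested.

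Cxcl16, a membrane-bound ligand that also acts as a scavenger receptor, read 9.31, 9.32 and 9.54 on the arrays labelled knockout, against 9.13, 9.03 and 9.08 on the control arrays. Its groups were separated, with a difference of 0.31 ± 0.08 just short of the threshold (limma adjusted p = 0.0521), and it passed without knockout 1 (0.0435). Cxcl16 was called in 5 of 15 alternative settings, with adjusted p up to 0.194. Its receptor Cxcr6 read 4.96, 5.13 and 5.08 on the arrays labelled knockout, against 5.21, 5.31 and 5.23 on the control arrays, at -0.19 ± 0.06 (adjusted p = 0.127).

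Cx3cl1, the membrane-tethered ligand of the CX3C family, read 7.48, 7.14 and 7.18 on the arrays labelled knockout, against 7.63, 7.67 and 7.64 on the control arrays. Every array labelled knockout lay below the controls, by -0.38 ± 0.09 (limma adjusted p = 0.0529). Without knockout 1 the difference was -0.49 ± 0.05 (adjusted p = 0.00269). Cx3cl1 was called in 4 of 15 alternative settings, with adjusted p up to 0.203. Its receptor Cx3cr1, a marker of monocytes and macrophages, differed by 0.15 with a 95% interval of -0.05 to 0.36.

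Against 8.49% of all genes called in either direction, 0 of the 19 CC ligands passed limma's adjusted threshold. Ccl20, the ligand of Ccr6 made by mucosal epithelium, had the largest difference of these. It read 7.72, 6.96 and 7.25 on the arrays labelled knockout, against 6.53, 6.82 and 6.75 on the control arrays. Knockout 1 was the highest array, and the difference of 0.61 ± 0.19 (limma adjusted p = 0.103) was 0.41 ± 0.12 without it (0.0898). It passed without knockout 2, the lowest array of its group, at 0.79 ± 0.15 (adjusted p = 0.0300). Ccl20 was called in only 1 of 15 alternative settings, with adjusted p up to 0.278. Ccr6, its receptor, differed by 0.34 ± 0.15 with overlapping groups (adjusted p = 0.232).

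Ccl2, which recruits monocytes through Ccr2, read 6.86, 7.26 and 6.66 on the arrays labelled knockout, against 6.58, 6.49 and 6.33 on the control arrays. The groups did not overlap, with a difference of 0.46 ± 0.15 (limma adjusted p = 0.128). Ccl3, a ligand of Ccr1, read 5.67, 5.55 and 5.46 against 5.42, 5.28 and 5.32 on the control arrays, at 0.22 ± 0.07 (adjusted p = 0.125). Ccl7 stood at 0.22 ± 0.10 and Ccl9 at 0.13 ± 0.06, and Ccl4, Ccl5, Ccl6, Ccl8 and Ccl12 lay between -0.003 and 0.11, all without a call. The receptors Ccr1 and Ccr2 differed by 0.003 and -0.057, with 95% intervals of -0.14 to 0.15 and -0.24 to 0.12.

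Eosinophil-attracting ligands of Ccr3 showed no separation. Ccl11, also called eotaxin, read 7.66, 7.66 and 7.29 on the arrays labelled knockout, against 7.68, 7.46 and 7.45 on the control arrays, and these ranges overlapped. Its difference was 0.007 with a 95% interval of -0.27 to 0.29 (limma adjusted p = 0.985). Ccl24 and Ccl26 differed by -0.013 and 0.063, and Ccr3 by -0.10.

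The ligands that place lymphocytes and dendritic cells in resting tissues also lacked calls. Ccl17 and Ccl22, which share Ccr4, differed by 0.06 and -0.007, and Ccl19, a ligand of Ccr7, by 0.18 (0.15 to 0.21 over its 5 probe sets). Ccr4 read 5.65, 5.43 and 5.55 on the arrays labelled knockout, against 5.42, 5.32 and 5.33 on the control arrays, at 0.19 ± 0.07 (limma adjusted p = 0.174). Ccl1 and Ccl28 differed by -0.007 and 0.010, and Xcl1 and its receptor Xcr1 by 0.027 and -0.11.

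**Figure D3:**
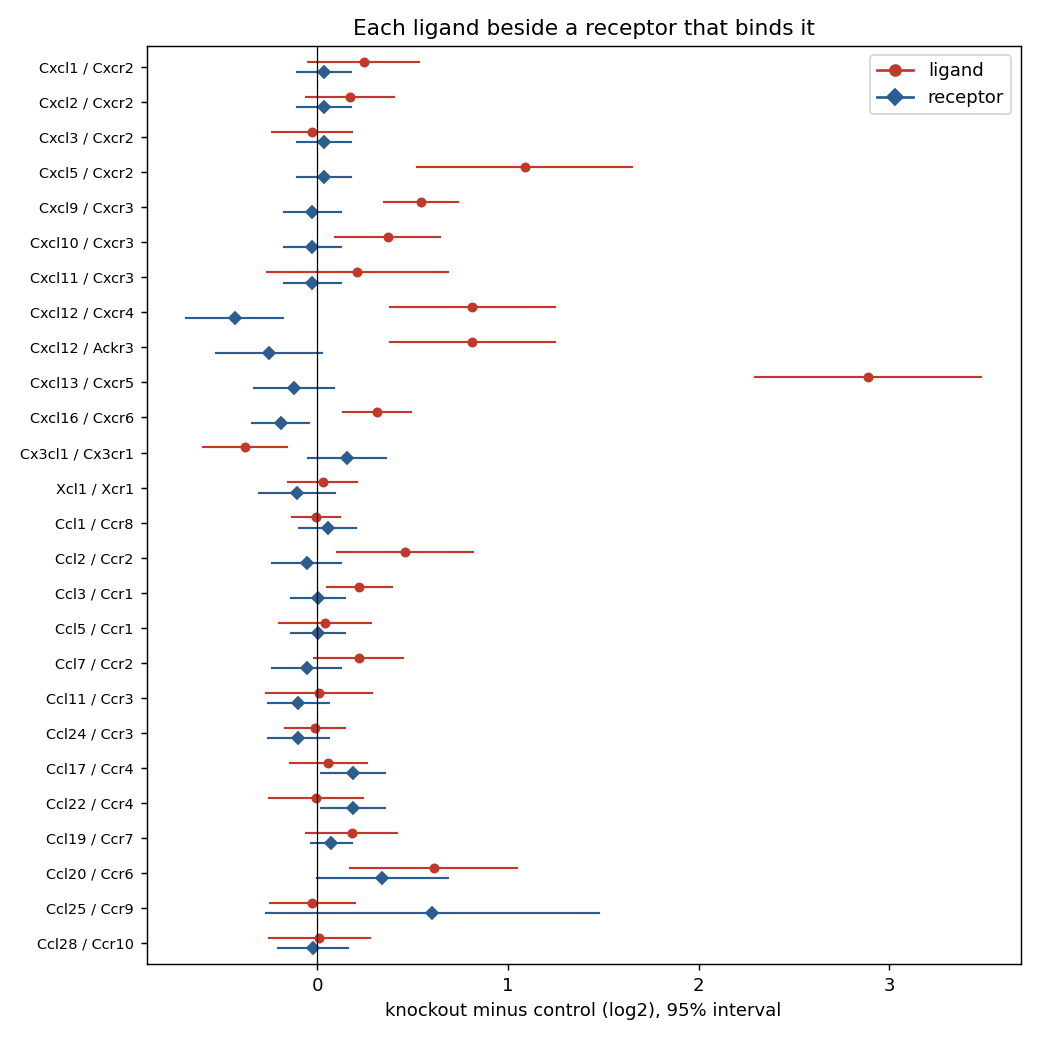
Log2 difference, knockout minus control, with its 95% interval for 26 pairs of a ligand and a receptor that bind each other (red circle, ligand; blue diamond, receptor). Cxcl13 at 2.89 lies beside Cxcr5 at -0.12, and Cxcl12 at 0.81 beside Cxcr4 at -0.43. A gene with several partners appears more than once.

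Ccr9 and Ccl25 form a receptor and ligand pair known from thymus and small intestine. Ccr9 and 1 of 2 probe sets of Ccl25 were high on knockout 1. Ccr9 read 6.82 on knockout 1, 5.34 and 5.38 on knockout 2 and knockout 3, and 5.29, 5.20 and 5.24 on the control arrays. Its difference of 0.60 ± 0.37 became 0.12 ± 0.06 without knockout 1 (limma adjusted p = 0.415 and 0.292). The 2 probe sets of Ccl25 disagreed. The brighter, used here, read 6.65, 6.88 and 6.68 on the arrays labelled knockout, against 6.60, 6.82 and 6.87 on the control arrays. The other read 8.96 on knockout 1, 5.80 on knockout 2, 6.14 on knockout 3, and 6.06, 5.90 and 6.03 on the control arrays.

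Among the 57 genes 23 (40.4%) were highest on knockout 1, against 24.0% of all genes. Of the 57, Ccr9 alone exceeded every other array by at least 1 there, and Ccr9 and Cxcl11 by at least 0.5. The 4 calls remained without knockout 1, where Cxcl16 also passed and Cx3cl1, Cxcr4, Cxcl17 and Ackr3 were called lower. That gave 5 higher and 4 lower, against 3.33% and 6.34% of all genes in the same fit.

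**Figure D4:**
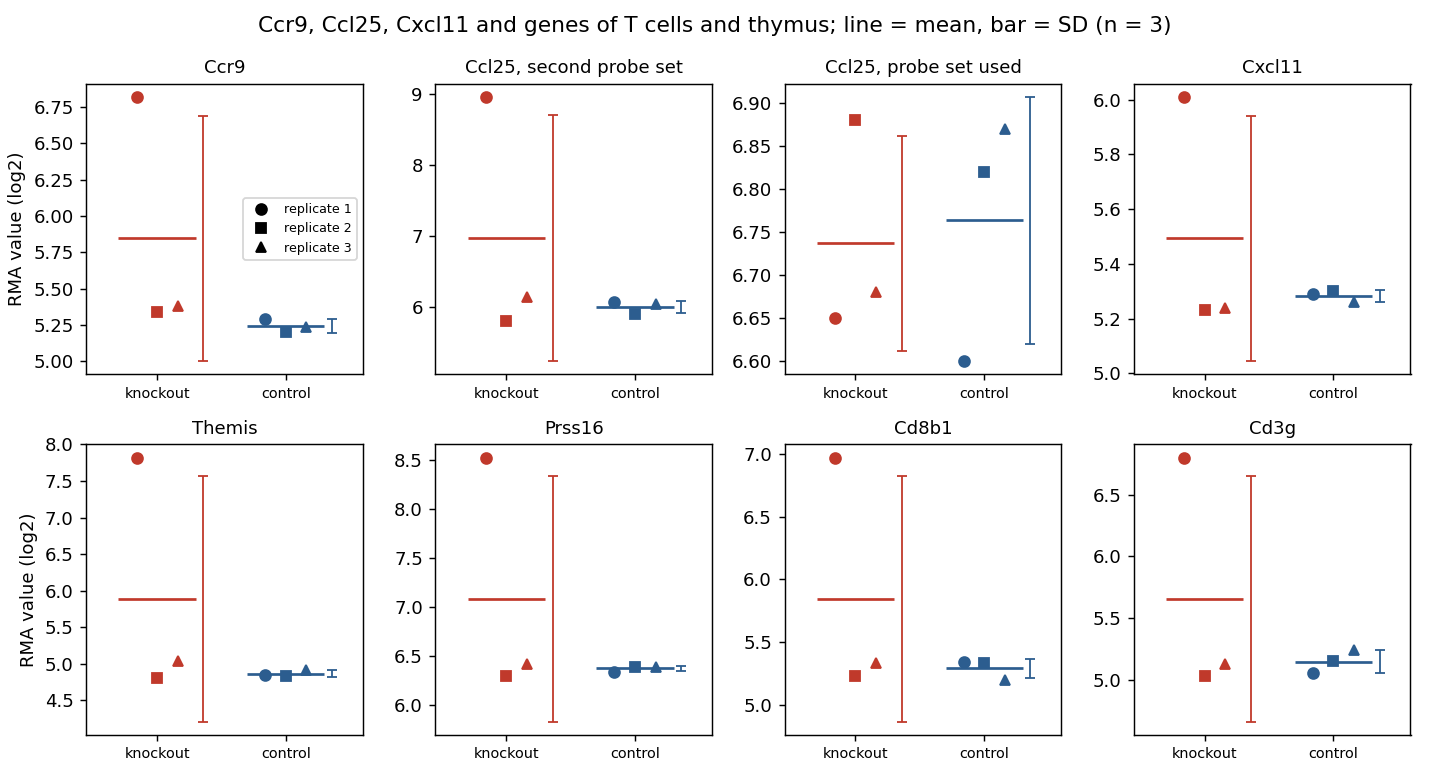
Log2 value on each array for Ccr9, both probe sets of Ccl25, Cxcl11 and 4 genes of T cells and thymus, arrays labelled knockout (red, left) and control (blue, right). Symbols mark the replicate number, lines the mean and bars the SD (n = 3). All panels but that of the Ccl25 probe set used here have knockout 1 above the other 5 arrays, such as 6.82 for Ccr9 against 5.20 to 5.38.

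The remaining receptors were not called. Ccr7, the homing receptor of lymph node entry, did not overlap between groups, yet differed by 0.07 ± 0.05. Ccr8, Ccr10 and the Ccr1-like gene Ccr1l1 differed by 0.053, -0.023 and 0.047. Among atypical receptors, Ackr1, which binds many inflammatory chemokines on endothelium and red cells, differed by 0.21 ± 0.09, and Ccrl2, which presents chemerin, by 0.20 ± 0.09. Both were higher on every array labelled knockout without passing (limma adjusted p = 0.257 and 0.265). Ackr2 and Ackr4, scavengers of CC ligands, differed by -0.11 and -0.063, with 95% intervals of -0.33 to 0.10 and -0.19 to 0.07.

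The 57 genes lay on 11 chromosomes, with 14 each on chromosomes 9 and 11 and 11 on chromosome 5. Chromosome 5 carries the neutrophil-attracting CXC cluster and the Cxcr3 ligands, and 3 of the 4 called genes, Cxcl5, Cxcl9 and Cxcl13, were on it. On chromosome 11, where most CC ligands lie, 0 of 14 were called by limma, and 2 (Cxcl16 and Ccl2) differed by more than 0.25. Across all genes 8.49% were called in either direction and 14.7% differed by at least 0.25. With so few members per chromosome, no contrast between chromosomes is drawn.

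Genes around the chemokine pathway were examined as well. Of 19 measured genes of chemokine signal transduction 1 rose, the inhibitory G protein subunit Gnai3, at 0.36 ± 0.08 (limma adjusted p = 0.0328), and 0 fell, against 3.36% and 5.13% of all genes. Of 13 chemokine-like ligands, receptors and proteases 3 rose and 0 fell. They were Cmtm6 (0.47 ± 0.05), known in human cells for stabilising a checkpoint ligand at the surface, Cd74 (0.35 ± 0.06), the invariant chain that also binds the cytokine Mif, and Pf4 (0.43 ± 0.10), a platelet CXC chemokine. Their adjusted p values were 0.00509, 0.0179 and 0.0407. Pf4 read 6.77, 7.07 and 6.95 on the arrays labelled knockout, against 6.53, 6.61 and 6.36 on the control arrays. Of 18 inducers of epithelial chemokines 0 passed and 5 had an unadjusted p under 0.05 (4 higher, 1 lower), against 22.1% of all genes. The closest was the TNF receptor Tnfrsf1b at 0.30 ± 0.09 (adjusted p = 0.0976). The median differences of these lists were 0.040, 0.220 and 0.053, against 0.003 over all genes.

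**Figure D5:**
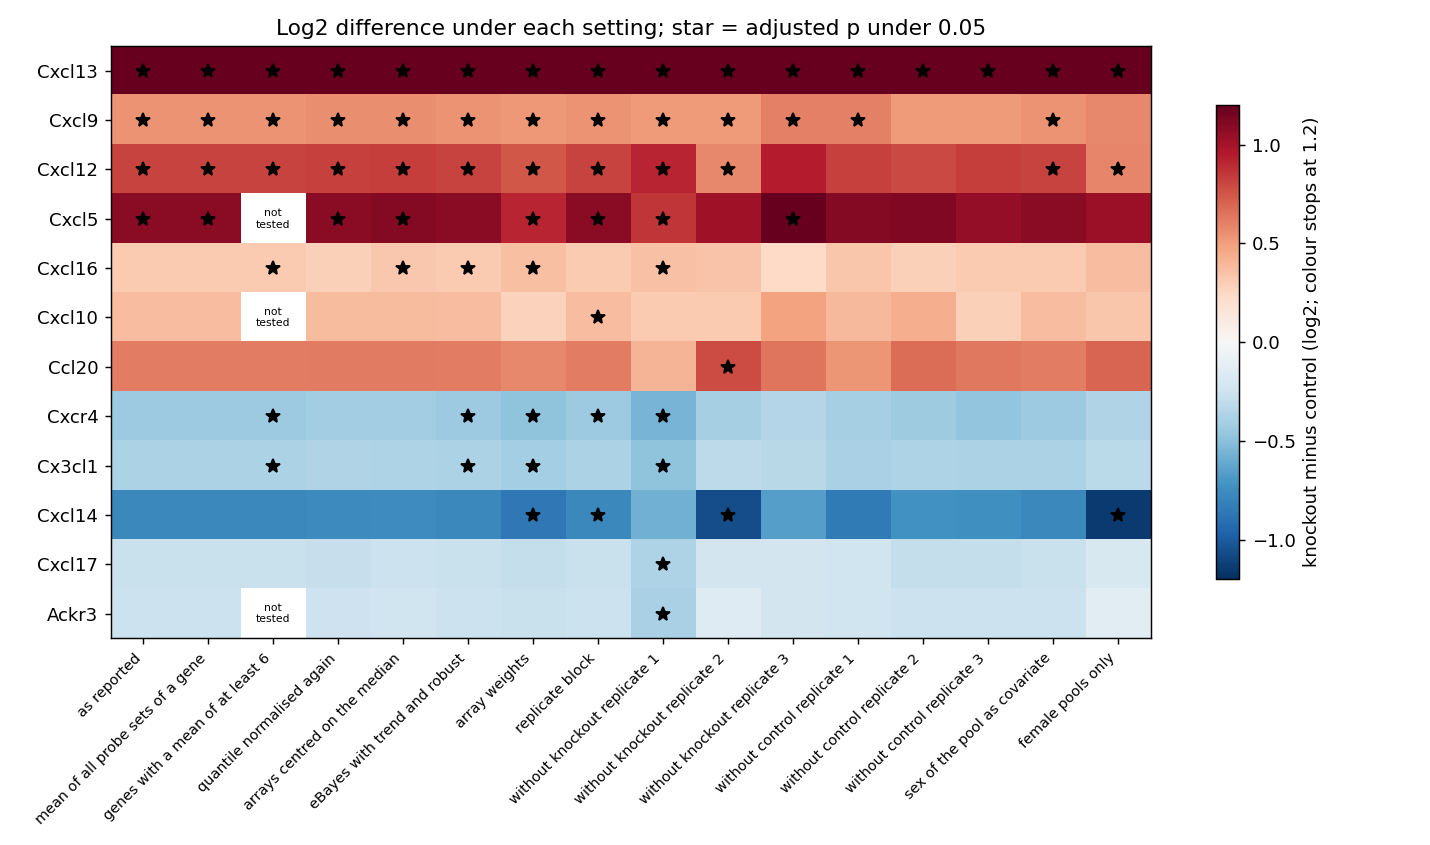
Log2 difference, knockout minus control, of 12 chemokine genes (rows) as reported and under 15 alternative settings (columns). Red is higher and blue lower on the arrays labelled knockout, colours stop at 1.2, and a star marks a limma adjusted p under 0.05. Only the row of Cxcl13 has a star in every column, and Cxcr4 and Cx3cl1 have stars in 5 and 4 of the 15 alternatives.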

How the data were processed

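RNA of type II cells was measured on 6 arrays, 3 labelled knockout and 3 control, grouped by array title. The deposited table holds log2 expression values. Affymetrix Expression Console (version 1.1) and RMA are named in the submitters' processing notes. RMA subtracts background, equalises the array distributions and summarises each probe set, so a shift shared by most genes is removed. A genome build for the array was not given in the sources used here.

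Of 35556 probe sets, 21789 had 1 gene symbol in the platform annotation, 1621 several and 12146 none. The 57 members came from 62 probe sets, and all 57 matched the RefSeq table (GRCm38.p6) by gene identifier. Family members whose symbols appear only on probe sets with several symbols were not analysed here. The groups were compared by lmFit and eBayes of limma (version 3.58.1; R 4.3.3), two-sided and with no trend. P-values were adjusted by Benjamini-Hochberg over 19938 genes, with a threshold of 0.05. The procedure was first tested on simulated data. Figures were drawn with matplotlib 3.10.9 in Python 3.11.15. The members and gene lists were chosen with earlier results of these data known. Values per array are given for members that were called in any fit with the replicate block or leaving out 1 array, that had an unadjusted p under 0.05, that were among the 8 brightest, or that are the receptor of a called ligand. The 8 brightest were Cxcl15, Cxcl16, Cxcl13, Cxcl17, Cxcl14, Ccl11, Cx3cl1 and Cxcl1. Others named with values on each array (Cxcl11, Ccr9 and Ccl25) were picked after their values were seen.

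Both groups carry replicate numbers 1, 2 and 3, with no meaning given in the labels. Same-numbered arrays deviated together from their group means (r = 0.192, 0.103 and 0.111), and arrays of different numbers had r of -0.135 to 0.0428. As all 3 exceeded the limit of 0.1, the numbers were taken as pairs in an alternative fit with a block, on the values alone. The reported fit has no block, and the fit with the block is given where it changes a call named here. Deviations cancel within a group, so positive r for like numbers brings negative r for unlike ones, and a pairing is not established. By Xist and Y-linked genes, knockout 2 and control 1 were male pools and the other 4 female. Arrays numbered 1, and those numbered 2, were thus of unlike sex. Alternatives covered probe set choice, a filter on dim genes, scaling, variance model, array weights, block, sex and leaving out each array. The number of arrays limits precision. Each p value weighs the group difference against the spread between pools, which limma moderates over all genes.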

Additional observations from a re-analysis of the deposited data

How the results depend on the processing

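In all, 15 alternatives to the fit were run, and Cxcl13 was called in each of them. The number of chemokine genes called higher (4 in the reported fit) ranged from 1 to 5 over the 6 fits that left out 1 array. It was 1 without control 2 or control 3, 2 without control 1 and 2 in the 4 female pools alone, an alternative chosen after seeing the data. Fewer arrays were fitted in each of these. The number called lower, 0 in the reported fit, ranged from 0 to 4 over the fits without 1 array. It was 2 with dim genes removed, 2 with a trended robust variance, 3 with array weights, 2 with the replicate block and 1 in the female pools. The filter kept 25 of the 57 genes and left Cxcl5 and Cxcl10 untested. Over all genes, 670 were higher and 1022 lower, against 144 to 835 and 301 to 1265 without 1 array and 114 and 84 in the female pools. The pathway genes called higher numbered 4, against 1 to 5 without 1 array, 2 with sex as a covariate and 0 in the female pools, where limma gave 8 at an unadjusted p under 0.05. Among the 23 genes followed through all settings, differences near 0 changed sign, without a call, in Ccl11, Cxcr1, Cxcr2 and Cxcr3, and without knockout 1 also in Cxcl11, Ccl5, Ccl25, Xcl1 and Ccr2 among the others. Ccl11 was at -0.046 with array weights and ranged from -0.055 to 0.13 without 1 array, negative without knockout 1, knockout 2, control 2 (-0.028) or control 3 (-0.033). Cxcr1 ranged from -0.13 to 0.018 without 1 array and was 0.015 in the female pools, Cxcr2 ranged from -0.017 to 0.058 and Cxcr3 from -0.078 to 0.017. Of 336 values of single genes under the alternatives, 291 kept their direction and side of the threshold, 22 gained a call and 14 lost one. Most of these values belong to genes without a call in the reported fit, so the 291 say little about the stability of the calls. All 14 losses fell on Cxcl5, Cxcl12 and Cxcl9, which stayed called in 7 of 14, 11 of 15 and 12 of 15 alternatives. The cause of the other changes was not tested. Signal over background was not used here, so whether a dim gene, such as Cxcl5 or a dim receptor, was detected cannot be stated. Among the 57 genes the replicate block changed the calls of Cxcl10, Cxcl14 and Cxcr4, and among the marker and pathway genes those of Cyp2f2, Lamp3 (adjusted p = 0.0522) and Ager (0.0824), all 3 lost. Ager, a type I cell marker, was higher by 0.22 ± 0.05 in the reported fit (limma adjusted p = 0.0363). Of the 6 type I markers, 4 had positive and 2 negative differences.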
